A study of Homo sapiens with 8 samples.

Results

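Beside the assembled chromosomes, the human genome build hg38 holds contigs that could not be set into a chromosome. Random contigs, whose names end in _random, were assigned to a chromosome but not to a position on it, and unplaced contigs, whose names start with chrUn_, were assigned to none. In the peak lists of 8 native ChIP-seq libraries, 6725 of 3306543 deposited peaks lay on such contigs, chosen by the contig name alone. They fell on 147 of the 169 contigs, 42 of them random and 127 unplaced, which measured 11.46 Mb in all. Contig lengths ran from 970 to 1872759 bases with a median of 6504, and 90 contigs were shorter than 10 kb.

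The libraries came from SUM159, a mesenchymal-like cell line from a triple-negative breast cancer, transduced with the lentiviral vector pLV-KRAB, which encodes dCas9-KRAB. This is a Cas9 without nuclease activity joined to the KRAB domain, which recruits enzymes that trimethylate lysine 9 of histone H3 (H3K9me3). All gRNA cells also carried 4 guides against the promoter of ZEB1, a transcription factor of the epithelial to mesenchymal transition, and No gRNA cells carried the same vector with 0 targeting guides. Every group therefore expressed the repressor, and each group and mark had 2 libraries that the labels call biological replicates. Antibodies to H3K9me3 and to H3K4me3, the mark of active promoters, gave 4 libraries each, and 1 peak list per library was analysed. For H3K4me3, the library labelled All gRNA replicate 2 and the library labelled No gRNA replicate 1 have files named for the other condition. The labels were kept. Comparisons of the marks over all 8 libraries do not depend on them, but comparisons within a condition and every H3K4me3 difference between conditions do.

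Much of the sequence on such contigs comes from satellites, tandem repeats that fill centromeres and the short arms of acrocentric chromosomes. Alpha satellite, the satellite of human centromeres, is built of monomers of about 171 bases, some of which carry the box bound by the centromere protein CENP-B. Other satellites repeat the pentamer CATTC with variations, and the ribosomal RNA genes stand in tandem arrays on acrocentric short arms. H3K9me3, which is bound by HP1 proteins, is the classical mark of the constitutive heterochromatin that such repeats form. Since copies of a repeat resemble each other, a short read can fit several places, and a peak on a contig may stand for copies that lie elsewhere.

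A few sequences show what the marks were compared on, all from the plus strand of hg38. The first set comes from chrUn_GL000226v1 (15008 bases), the contig built on the 171-base period with the widest gap between the marks. Its 3 consecutive blocks of 171 bases, at chrUn_GL000226v1:7506-7676, 7677-7847 and 7848-8018, start around the CENP-B box nearest the middle of its strongest H3K9me3 peak, and capitals mark the box (TTCG, 4 bases, A, 2 bases, CGGG, on either strand).
chrUn_GL000226v1 block 1: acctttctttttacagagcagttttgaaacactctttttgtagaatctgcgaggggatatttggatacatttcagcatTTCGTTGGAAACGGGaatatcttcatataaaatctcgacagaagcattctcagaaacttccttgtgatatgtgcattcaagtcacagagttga
chrUn_GL000226v1 block 2: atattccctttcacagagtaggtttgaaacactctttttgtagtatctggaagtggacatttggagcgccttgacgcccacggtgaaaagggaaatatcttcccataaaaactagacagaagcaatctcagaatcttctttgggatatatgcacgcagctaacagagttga
chrUn_GL000226v1 block 3: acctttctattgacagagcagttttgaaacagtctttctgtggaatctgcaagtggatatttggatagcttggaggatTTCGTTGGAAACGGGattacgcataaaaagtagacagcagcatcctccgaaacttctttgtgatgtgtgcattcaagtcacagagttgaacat
Blocks 1 and 3 held the box and block 2 did not. Blocks 1 and 2 were 75.4% identical base by base, without gaps, and blocks 1 and 3 58.5%. Over the whole contig, the sequence matched itself best at a shift of 4092 bases, with 99.1% identity, so that 171-base monomers were repeated as one longer unit. A further block of the same period, also around a box, came from the random contig of chromosome 5 at chr5_GL000208v1_random:87505-87675, where the box lies on the minus strand. It is the box nearest the middle of the strongest H3K9me3 peak there but lies before the start of that peak, at 88597. Compared without gaps, the block was 28.1% identical to the next 171 bases, against 53.4% for the whole contig at this shift. The next block is out of step, with closely similar runs displaced by 1 base. The low value therefore does not mean that the neighbouring monomers are unlike.
chr5_GL000208v1_random: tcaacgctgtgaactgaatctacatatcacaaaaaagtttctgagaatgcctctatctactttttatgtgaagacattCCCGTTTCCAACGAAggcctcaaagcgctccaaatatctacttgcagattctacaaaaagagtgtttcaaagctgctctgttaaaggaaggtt

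Not every contig under H3K9me3 was of this kind. The contig with the widest gap of all, chrUn_KI270754v1 (40191 bases, GC content 54.6%), held no CENP-B box and matched itself best at a shift of 5639 bases, with 46.0% identity. Its middle, at chrUn_KI270754v1:20062-20211, contains no tandem pair of CATTC. The middle of the strongest peak on chr14_GL000225v1_random, at chr14_GL000225v1_random:74353-74502, belongs to a repeat of 68 bases (36.3% identity at that shift). The stretch at chrUn_KI270756v1:24925-25074 shows the pentamer repeat, with capitals on tandem pairs of CATTC on either strand, from the 10 kb window with the widest gap between conditions on its contig.
chrUn_KI270754v1: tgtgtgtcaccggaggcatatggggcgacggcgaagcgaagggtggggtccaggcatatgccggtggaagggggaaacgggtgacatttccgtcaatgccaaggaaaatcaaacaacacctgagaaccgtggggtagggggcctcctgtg
chr14_GL000225v1_random: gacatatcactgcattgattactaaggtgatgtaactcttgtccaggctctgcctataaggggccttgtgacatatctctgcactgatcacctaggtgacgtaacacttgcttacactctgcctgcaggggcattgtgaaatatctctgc
chrUn_KI270756v1: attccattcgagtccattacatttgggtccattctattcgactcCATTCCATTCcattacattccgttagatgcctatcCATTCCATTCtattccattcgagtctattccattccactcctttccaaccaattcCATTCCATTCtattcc

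The last 2 stretches were under H3K4me3. The middle of the strongest H3K4me3 peak of chrUn_GL000195v1 (chrUn_GL000195v1:68918-69067), 1 of the 2 contigs with more bases under H3K4me3 than under H3K9me3 in every library, is shown with CpG dinucleotides in capitals. The other, chrUn_GL000220v1:104170-104319, lies upstream of a ribosomal RNA gene in the bases under H3K4me3 in all 4 libraries, which were under H3K9me3 as well, and was chosen after its values were seen.
chrUn_GL000195v1: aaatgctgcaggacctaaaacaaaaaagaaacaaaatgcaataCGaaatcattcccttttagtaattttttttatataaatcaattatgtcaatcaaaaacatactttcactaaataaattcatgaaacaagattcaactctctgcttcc
chrUn_GL000220v1: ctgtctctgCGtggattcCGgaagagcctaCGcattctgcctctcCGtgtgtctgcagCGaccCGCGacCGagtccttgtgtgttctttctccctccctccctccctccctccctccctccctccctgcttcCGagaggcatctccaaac
These stretches of 150 bases held 1 and 9 CpG dinucleotides.

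The contigs as a whole were covered by H3K9me3 and hardly by H3K4me3. Peaks with q ≤ 0.05, as the peak caller gave q, were merged in each library, and the covered share of the 11.46 Mb was taken. For H3K9me3 it was 48.7% and 47.8% in the All gRNA libraries against 39.5% and 46.3% in the No gRNA libraries, which gave 45.6% ± 4.18 (SD, n = 4). For H3K4me3 it was 1.13% and 0.750% (labelled All gRNA) and 0.783% and 1.56% (labelled No gRNA), which gave 1.06% ± 0.378 (SD, n = 4). The shares of the marks were separate, each H3K9me3 library lying above each H3K4me3 library, and the difference was 44.5 percentage points (exact permutation test over 8 libraries, two-sided, p = 0.0286, the smallest this design gives). Within All gRNA the difference was 47.3 points and within No gRNA 41.7 points, where an exact permutation test of 2 libraries against 2 cannot go below p = 0.33.

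Chromosomes 1 to 22 and X served as the background. H3K9me3 covered 6.53%, 6.21%, 3.22% and 7.85% of their bases in the same order of libraries, so that each library had 5.89 to 12.3 times as large a share of the contigs as of the chromosomes. This ratio depended on the q limit, and with all deposited peaks it was 2.35 to 2.42. At q ≤ 0.05 the difference was 39.6 ± 2.78 points (SD, n = 4) and was positive in 4 of 4 libraries (exact sign-flip test, two-sided, p = 0.13, the smallest it can give). H3K4me3 covered 1.80%, 0.636%, 1.52% and 3.78% of the chromosomes, and its contig share lay below this in 3 of 4 libraries and above it in the library labelled All gRNA replicate 2 (difference −0.88 points, exact sign-flip test, p = 0.25). At q ≤ 0.001 the H3K4me3 difference had the other sign, at 0.245 points, and with all deposited peaks it was −19.9 points. The peaks themselves also differed from those of the chromosomes. Between 40.4% and 51.6% of the H3K9me3 peaks on contigs passed q ≤ 0.05, against 2.89% to 9.77% of those on the chromosomes. Contigs made up 0.377% of the sequence of contigs and chromosomes 1 to 22 and X together. Of the 100 strongest peaks of a library on this sequence, 28 to 35 with H3K9me3 and 7 to 10 with H3K4me3 lay on contigs. Peaks on entries outside both were not ranked, among them 28760 to 31418 per H3K9me3 library at q ≤ 0.05.

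**Figure D1:**
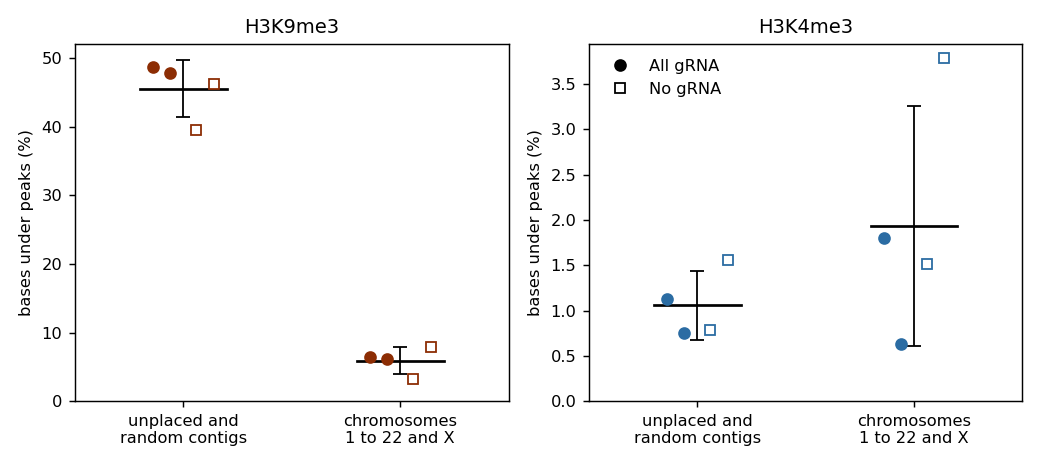
Share of bases under peaks (%) on unplaced and random contigs and on chromosomes 1 to 22 and X, for H3K9me3 (left) and H3K4me3 (right), each with its own vertical scale. Points are libraries (filled, All gRNA; open, No gRNA, as labelled), lines are means and error bars the SD over 4 libraries; the 4 H3K9me3 libraries lie between 39.5% and 48.7% on contigs and between 3.22% and 7.85% on chromosomes.

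Covered bases were spread unevenly over the contigs. With H3K9me3, 119 contigs had a peak in all 4 libraries, 21 in 1 to 3 libraries and 29 in none, 93 contigs were covered over at least 50% of their length in every library and 26 over at least 90%. With H3K4me3, 8 contigs had a peak in all 4 libraries, 19 in 1 to 3 libraries and 142 in none. Unplaced contigs were covered by H3K9me3 over 61.3% to 68.4% of their bases and random contigs over 25.5% to 36.0%, and the ranges of the 4 libraries did not overlap. A long random contig, chr16_KI270728v1_random, weighed on that figure, with 1872759 of the 6.98 Mb in random contigs.

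A contig was called rich in one mark where the lowest of its 4 libraries lay at least 25 points above the highest of the other mark. By this rule 97 of 169 contigs (57.4%) were rich in H3K9me3 and 0 in H3K4me3, and the 97 contigs held 48.8% of the contig bases. Contig by contig, H3K9me3 was higher in every library on 116 contigs and H3K4me3 on 2. Such separation by itself gives the smallest p of the exact permutation test (p = 0.0286, Benjamini-Hochberg adjusted p = 0.0409 over 169 contigs). The p-values therefore add nothing to these counts, and contigs share libraries and reads. To set the calls beside the chromosomes, the rule was applied to windows of 10 kb. It called 569 of 1257 contig windows rich in H3K9me3 (45.3%), against 3.15% of 303114 chromosome windows. It called 4 contig windows rich in H3K4me3 (0.318%), against 0.251% of chromosome windows, a share near the background. Of the 97 contigs, 43 were at least 10 kb long and 54 were shorter, and 78 were unplaced (61.4% of the unplaced contigs) and 19 random (45.2% of the random contigs). The count was 40 at q ≤ 0.001 and 35 when every library was cut to the same covered length. Close to the limit, chrUn_KI270310v1 with a gap of 25.7 points was called and chrUn_KI270322v1 with 23 points was not. Shares were of the full length, and on chrUn_KI270322v1 15268 of 21476 bases are undetermined (N), where no read can align. Its small gap therefore does not mean weak coverage of its known sequence. Over bases that are not N, 99 contigs were rich in H3K9me3.

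The 8 contigs with the widest gap were covered almost from end to end in all 4 H3K9me3 libraries. On chrUn_KI270754v1 the shares were 99.6%, 99.7%, 99.5% and 99.6% (mean 99.6% ± 0.051, SD, n = 4), in the order All gRNA 1, All gRNA 2, No gRNA 1 and No gRNA 2, and H3K4me3 was at 0 in all 4 libraries. The next, chrUn_GL000226v1, had 98.7%, 99.1%, 98.8% and 99.3%, and 44 CENP-B boxes, or 2.93 per kb. Then came chrUn_GL000224v1 (179693 bases, gap 98.1 points), chrUn_KI270753v1 (62944 bases, 97.9 points) and chr5_GL000208v1_random (92689 bases, 45 boxes, 97.5 points). The last 3 were chrUn_KI270511v1 (8127 bases, 96.7 points), chrUn_KI270320v1 (4416 bases, 4 boxes, 96.1 points) and chr14_GL000225v1_random (211173 bases, 96.1 points). These shares rest on the q limit for some of them. The difference between the marks on chr5_GL000208v1_random was 98.5 points at q ≤ 0.05, 73.6 at q ≤ 0.01, 4.54 at q ≤ 0.001 and 1.08 at equal covered length. At equal covered length it was 48.4 points on chrUn_KI270511v1 and 41.9 on chrUn_GL000224v1. On 7 of these 8 contigs no H3K4me3 peak passed q ≤ 0.05, and on chr14_GL000225v1_random the highest H3K4me3 share was 0.153%. Of the 8 contigs, chrUn_GL000226v1, chr5_GL000208v1_random, chrUn_KI270511v1 and chrUn_KI270320v1 were built on the 171-base period, and the other 4 were not. A single peak could run over most of a long contig, as on chr14_GL000225v1_random, where a peak of No gRNA replicate 2 spanned bases 18 to 148838.

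The 5 longest contigs ranged from nearly bare to nearly full. On chr16_KI270728v1_random, H3K9me3 covered 4.50%, 5.02%, 0.743% and 5.76% of the bases, and on chr15_KI270727v1_random (448248 bases) 3.40%, 1.28%, 1.97% and 11.5%. These shares are of the size found on the chromosomes. In contrast, chrUn_KI270442v1 (392061 bases) stood at 92.1%, 92.2%, 84.9% and 89.97%, and shared 24.4% of its stretches of 50 bases (50-mers) with the chromosomes. On chr17_KI270729v1_random (280839 bases) the share was 41.3%, 25.1%, 15.03% and 19.3%, with both All gRNA libraries above both No gRNA libraries. The fifth, chr14_GL000225v1_random, is described above. None of the 5 had an H3K4me3 peak in all 4 libraries.

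Sequence classes were formed from the reference alone, after the first results had been seen. Of the 169 contigs, 91 had a period of about 171 bases, 8 were dense in tandem CATTC pairs, 5 short AT-rich contigs had a period of 42 bases, and 65 had none of these. Bases of the 171-base class were under H3K9me3 at 70.7%, 63.9%, 54.5% and 62.1%, and 57 of its 91 contigs were rich in H3K9me3. In the CATTC class the shares were 68.4%, 61.8%, 46.6% and 55.7%, with 4 of 8 contigs rich. The other contigs had 41.7%, 42.75%, 35.8% and 42.04%, with 36 of 65 rich, and the 42-base class had 5.07%, 13.8%, 4.14% and 0% on only 0.010 Mb, with 0 of 5 rich. By bases, the 171-base and CATTC classes lay above the other contigs in all 4 libraries. By contigs this did not hold for CATTC, since the median share of a contig was 52.2% there and 63.7% in the other contigs, while it was higher again in the 171-base class. The other contigs include chr16_KI270728v1_random, which is long and nearly bare. Members of a class resemble each other in sequence and share reads, so they are not independent, and no test was run between classes.

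Within the 171-base class, a CENP-B box went with no higher share. Of 60 contigs with a box, 36 were rich in H3K9me3 (60.0%, median share 78.1%), and of 31 without one, 21 were (67.7%, median 84.7%). Shares were of the full length, which lowers them where many bases are undetermined (N). Contigs made mostly of N all held boxes: chrUn_KI270317v1 (34066 of 37690 bases), chrUn_KI270311v1 (9433 of 12399) and chrUn_KI270322v1 (15268 of 21476). Without a box, chrUn_KI270589v1 had 9078 N of 44474 bases. The comparison by box was not repeated without N. The chromosome that held the largest share of a contig's 50-mers, which could be small, was also recorded. Contigs closest to chromosome 15 were rich in 6 of 6 cases and those closest to chromosome 20 in 9 of 10. Of the 7 closest to chromosome 7, 0 were rich, and 6 had no H3K9me3 peak at q ≤ 0.05 in any library. These chromosomes were picked after the values were seen, and the groups differ in likeness. The named chromosome held 6.80% to 48.5% of the 50-mers for chromosome 15 and 3.79% to 50.8% for chromosome 20. On the 6 contigs without a peak, chromosome 7 held 89.2% to 99.96%. Across the 79 contigs of 10 kb or more, the rank correlation of the mean H3K9me3 share with GC content was −0.232, with the share of 50-mers also found on the chromosomes −0.363, and with length 0.121. These are descriptions over contigs that share libraries and repeats.

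The peak lists held no peak of either mark on 22 contigs, 18 of them shorter than 10 kb. They included 6 contigs of the 171-base class with 90.6% to 99.96% of their 50-mers on the chromosomes and most on chromosome 7 (chrUn_KI270371v1 to chrUn_KI270376v1), 3 of the 5 contigs of the 42-base class, and chrY_KI270740v1_random. The longest of the 22 was chr14_KI270726v1_random (43739 bases). On chrUn_KI270752v1, also without a peak, only 0.397% of the 50-mers occurred on the chromosomes. At q ≤ 0.05 the number of contigs without a peak was 27. How many reads these contigs received is not known from peak lists.

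H3K4me3 peaks on contigs were few. They merged into 53 regions on 27 contigs, of which 20 appeared in 1 library, 11 in 2, 10 in 3 and 12 in all 4. The 12 regions lay on 8 contigs and had a median of 19.9 CpG per kb (range 8.06 to 89.99), and 7 of them were denser in CpG than their own contig. Of the 53 regions, 21 lay wholly under H3K9me3 in all 4 H3K9me3 libraries and 19 had no base under it in any. Among the 12 regions each count was 4. On 2 contigs H3K4me3 covered more bases than H3K9me3 in every library. On chr1_KI270713v1_random (40745 bases) H3K4me3 covered 29.8%, 14.4%, 21.96% and 27.7%, and H3K9me3 0%, 8.66%, 0% and 8.81%. On chrUn_GL000195v1 (182896 bases) H3K4me3 covered 16.8%, 6.50%, 15.6% and 15.9%, and H3K9me3 0.941%, 1.01%, 0% and 2.69%. Neither reached the 25-point gap, but the mean difference was −19.1 points on the first and −12.6 points on the second.

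The 4 windows rich in H3K4me3 were on these 2 contigs and on 2 others. In chr17_GL000205v2_random:80001-90000 H3K4me3 covered 52.5%, 52.9%, 49.2% and 52.0%, and in chr1_KI270713v1_random:20001-30000 it covered 51.4%, 58.5%, 65.6% and 63.6%. In chrUn_GL000195v1:60001-70000 the shares were 41.5%, 42.4%, 42.1% and 42.5%, and in chrUn_GL000220v1:50001-60000 they were 33.6%, 38.3%, 53.0% and 47.9%. H3K9me3 was at most 7.62% in any of the 4 windows. The H3K4me3 region of chrUn_GL000218v1 (93460 to 99571) was among those wholly under H3K9me3, on a contig under H3K9me3 over 90.8%, 92.0%, 61.3% and 83.9% of its bases.

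Upstream of the ribosomal RNA genes lay peaks of both marks, and over the genes themselves mostly H3K9me3. The 5.8S rRNA transcript of GENCODE matched without mismatch at 4 places, at 112025 to 112177 and 155997 to 156149 of chrUn_GL000220v1 and at 128877 to 129029 and 173956 to 174108 of chr22_KI270733v1_random, all on the plus strand. RefSeq lists the 45S precursor gene RNA45SN5 at 105424 to 118780 of a sequence that the table does not name. Its 5.8S gene, at 112024 to 112180, holds only the first of these matches, so the 45S start was set at 105424 on chrUn_GL000220v1. The first 300 bases from there were found again, 100% identical, before the second unit of that contig and the first unit of chr22_KI270733v1_random, and 80.7% identical, without gaps, before the other.

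H3K9me3 covered all of the 2 kb upstream of the 45S start in each of the 4 units and each of the 4 libraries. H3K4me3 covered 55.8%, 100%, 73.7% and 100% of the same 2 kb in the first unit of chrUn_GL000220v1, and 55.2%, 100%, 74.4% and 56.5% in the second. On chr22_KI270733v1_random it covered 53.4%, 100%, 53.4% and 100% in the first unit and 75.5%, 78.2%, 33.0% and 97.8% in the second. The bases under H3K4me3 in all 4 libraries ran from −1474 to −885 in the first unit, counted from the 45S start, from −1488 to −898 in the second, and from −1510 to −870 in the second unit of chr22_KI270733v1_random. In the first unit of that contig they were 4174 bases in separate stretches between −9048 and −933, and from −9000 to −6750 H3K4me3 covered every step of 250 bases fully in all 4 libraries where H3K9me3 was at 0. The H3K4me3 regions around the first 3 of these had 89.99, 84.4 and 77.6 CpG per kb, the densest of the 12, and that of the last 53.5. Over the 45S gene itself, H3K4me3 covered at most 16.5% in any unit and library and was 0 over the 18S part in all units and libraries. H3K9me3 went on through the gene, with 70.5%, 100%, 83.6% and 100% of the first unit of chrUn_GL000220v1. Whether both marks sat on the same copies cannot be told apart from different copies of the array carrying one mark each, since reads of all copies collect on these units. The alignment index also held separate ribosomal entries, on which 2807 to 3932 H3K9me3 peaks and 42 to 282 H3K4me3 peaks of a library passed q ≤ 0.05.

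Transcripts of few protein-coding genes were matched on contigs, and none of the contigs with such a match was called for either mark. The search finds only near-identical copies of annotated transcripts, so diverged copies and genes held by contigs alone would be missed. At least 90% of the 50-mers of a GENCODE transcript were found for MRPL23, a mitochondrial ribosomal protein gene, on chr11_KI270721v1_random, for OR4M2, an olfactory receptor gene, on chr15_KI270727v1_random, for 5 TP53TG3 genes on chr16_KI270728v1_random, and for DGCR6 and the proline dehydrogenase gene PRODH on chr22_KI270734v1_random. For MRPL23 the match was to a transcript without a defined coding sequence, and for DGCR6 and PRODH to transcripts that retain an intron (90.3% and 90.1%). On chr11_KI270721v1_random, which also holds the imprinted noncoding gene H19 and its microRNA hairpin MIR675, no H3K9me3 peak passed q ≤ 0.05. H3K4me3 covered 7.03% of this contig in a single library, that labelled No gRNA replicate 2. On chr22_KI270734v1_random H3K9me3 covered 0.465%, 0%, 0.231% and 1.40%, and H3K4me3 2.12% in the same single library, in a region that held the promoter copy of DGCR6. RefSeq promoters (300 bases, build GRCh38.p14) were found on 11 contigs, in 33 matches of a promoter to a contig with 30 symbols in all, and 2 of the 53 H3K4me3 regions held one. Some matches, such as those of the TP53TG3 genes, fell on the same bases, so the matches do not count separate copies. A copy of the zinc finger gene ZNF595 promoter on chrUn_KI270744v1 lay on a contig under H3K9me3 over 58.5%, 63.4%, 58.4% and 55.1% of its bases, with H3K4me3 at 0. Reads from these copies and from the chromosomal genes cannot be told apart where the sequence is the same.

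The last comparison asked whether the guides against ZEB1 went with a difference on contigs. The H3K9me3 share was 48.3% ± 0.636 in All gRNA and 42.9% ± 4.81 in No gRNA (SD, n = 2 each), a difference of 5.38 points, with both All gRNA libraries above both No gRNA libraries (exact permutation test, p = 0.33, the smallest possible). Without No gRNA replicate 1, which was also the lowest H3K9me3 library on the chromosomes, the difference was 1.98 points. Over single contigs the H3K9me3 difference was positive on 97, negative on 43 and 0 on 29, a description only, since contigs share libraries. For H3K4me3, the mean of the libraries labelled All gRNA was 0.942% ± 0.272 and that of those labelled No gRNA 1.17% ± 0.550 (SD, n = 2 each), a difference of −0.23 points within the spread of the libraries (exact permutation test, p = 0.67). Without the library labelled No gRNA replicate 2 its sign turned, at 0.158 points.

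Single contigs were called where at least 25 points separated the lower library of one condition from the higher library of the other. With H3K9me3 this held for 1 contig of 169 (0.592%), chrUn_KI270587v1 (2969 bases), with 0% in either No gRNA library against 38.9% and 76.9% in All gRNA, and for 0 contigs in the other direction. Leaving out a library eases the rule, and the count was then 9 without No gRNA replicate 2 and 3 to 5 without each of the others. With whole contigs as units there is no background on the chromosomes, so 10 kb windows were counted. H3K9me3 was higher in All gRNA in 22 contig windows (1.75%), against 0.354% of chromosome windows, and lower in 1 (0.0796%), against 0.0723%. Contigs and chromosomes were not matched for coverage, with H3K9me3 over 45.6% of contig bases and 5.95% of chromosome bases. A window without a peak cannot be called, and a contig under 10 kb counted as 1 window. The 22 windows lay on 13 contigs, and without each library in turn the count rose to between 35 (without No gRNA replicate 1) and 101 (without No gRNA replicate 2). Lower windows then numbered 1 to 27, and without No gRNA replicate 1 there were 35 higher and 27 lower, a less uneven split. No gRNA replicate 1 had 0% in 13 of them, and whether its lower coverage of the whole genome plays a part was not tested. With all deposited peaks 7 contig windows were higher (0.557%), against 0.877% of chromosome windows. At q ≤ 0.01 the shares were 2.23% and 0.117%, and at q ≤ 0.001 2.07% and 0.0175%. The share of higher windows on contigs was thus below the background with all peaks and above it at each q limit. Lower windows at q ≤ 0.001 also exceeded the background, with 5 on contigs (0.398%) against 0.028% on chromosomes.

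Of the 13 contigs with such windows 5 were among the 8 of the CATTC class, 4 among the 91 of the 171-base class and 4 among the 65 others. Pooled, 69.2% were in repeat classes, against 61.5% of all contigs, but the classes differed, and longer contigs hold more windows. Over whole contigs, the widest gaps after chrUn_KI270587v1 were on chrUn_KI270756v1, with 50.5% and 38.2% against 14.7% and 17.8%, and on chr22_KI270736v1_random, with 74.6% and 70.9% against 8.09% and 56.1%, both dense in CATTC pairs (28.1 and 14.7 per kb). Then came chrUn_KI270589v1 (74.4% and 74.1% against 62.8% and 60.7%) and chrUn_KI270745v1 (21.3% and 34.0% against 0% and 11.6%). In the other direction the widest gap was 9.72 points on chrUn_KI270580v1, at 65.9% and 72.6% against 84.0% and 82.4%. The 4 contigs that followed, chrUn_KI270412v1, chrUn_KI270518v1, chrUn_KI270302v1 and chrUn_KI270511v1, had gaps of 5.43 points or less. In all, 53 of the 169 contigs had both All gRNA libraries above both No gRNA libraries and 9 the reverse. No background on the chromosomes was computed for this count. Contigs share libraries and reads, so nothing about the guides was read from it.

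For H3K4me3, 1 contig was called higher in the libraries labelled All gRNA and 0 lower. It was chrUn_KI270391v1 (1484 bases), at 33.0% and 41.0% against 0% and 0%, with H3K9me3 over 82.4%, 80.9%, 86.6% and 79.1% of its bases. Of the contig windows 1 was higher (0.0796%), against 0.0132% of chromosome windows, and it was this contig. Another was lower (0.0796%), against 0.34% of chromosome windows, at chr17_GL000205v2_random:130001-140000, with 0% and 0% against 55.6% and 53.6%. The only other contigs without overlap between the labelled groups were chrUn_KI270538v1, with a gap of 0.712 points, and chr17_GL000205v2_random, with 3.57 points in the other direction. With 1 window each way, nothing was read from these counts.

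**Figure D2:**
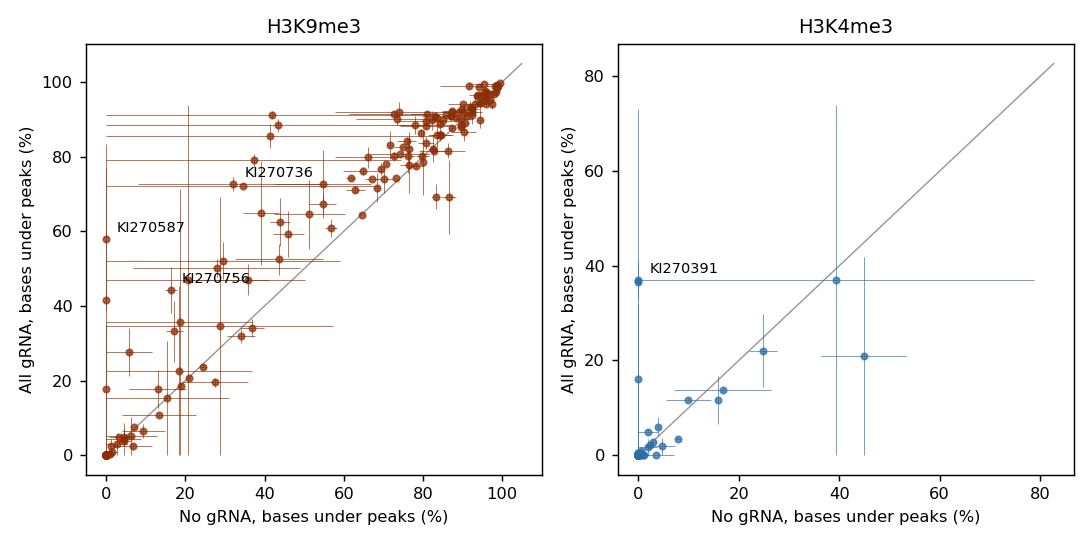
Share of bases under peaks (%) of each of the 169 contigs in No gRNA (horizontal) and All gRNA (vertical), for H3K9me3 (left) and H3K4me3 (right, groups as labelled). Points are means of 2 libraries, bars reach to both libraries and the grey line marks equal shares; for H3K9me3 97 contigs lie above the line and 43 below, and long bars mark contigs on which the 2 libraries of a group differ.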

How the data were processed

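Native ChIP-seq of SUM159 cells had been made by the authors for H3K9me3 and H3K4me3, with 2 libraries per mark in All gRNA and in No gRNA. The study's methods name fastp for trimming, bowtie2 for alignment (hg38) and MACS2 for broad peaks, called in each library on its own after duplicates and excluded regions had been taken out. The submitters' processing notes name bcl2fastq 2.17, Trimmomatic 0.33, Bowtie 1.1.2 and MACS2 2.1.0 instead. For each peak the authors deposited the caller's score, its fold (ratio) over background and its −log10 p and −log10 q. Whether input chromatin served as the control in peak calling, and the limit on p, are not given in the sources used here, and the lowest deposited −log10 p-value was 1.0 in every list. How reads that fit several places were aligned is not given either.

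Peaks were taken whose first column starts with chrUn_, or starts with chr and ends with _random. Those with q ≤ 0.05 were merged per library, and the covered share was computed per contig, over all contigs, over 10 kb windows and over chromosomes 1 to 22 and X. Peak lists hold no read counts, and no depth or counting interval follows from them. Libraries were compared by exact permutation tests, two-sided (smallest p 0.0286 for 4 against 4 and 0.33 for 2 against 2), and by exact sign flips. A gap of 25 points between the libraries of groups was the call rule. The contigs named are the 8 with the widest gap between marks in each direction (2 for H3K4me3) and the 5 longest. Also named are the 5 with the widest gap per mark and direction between conditions, and those with matched transcripts of protein-coding genes. The others named, among them those of the ribosomal genes, of called windows, of promoter copies, without peaks or near a limit, were chosen after their values were seen. Members, classes and lists were chosen with earlier results of these data known.

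The genome given holds no annotation of contigs. Sequence features were therefore counted in the reference, as 50-mers shared with the chromosomes, identity at each shift of 2 to 400 bases, CENP-B boxes and tandem pairs of CATTC. GENCODE release 44 transcripts of at least 200 bases, RefSeq promoters of 300 bases and RefSeq microRNA hairpins were matched to them, at 90% of 50-mers or exactly. Alternatives were other q limits, all deposited peaks, equal covered length, contigs of at least 10 kb, bases that are not N, a gap of 50 points, a median over contigs, each library left out and the replicate number as a block. The windows and a crossed pairing were added after seeing the data. Scripts ran under Python 3.11.15, NumPy 2.4.6, SciPy 1.17.1 and pandas 2.3.3 and were checked on simulated peak lists.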

Additional observations from a re-analysis of the deposited data

Results flagged for a closer look

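Among 64 sets of 4 libraries of 1 mark (2 totals per mark, on contigs and on chromosomes, and 30 named contigs), 4 held a library whose distance to its neighbour took up most of the range of the set, by Dixon's criterion. Chance alone gives about 1 in 20 of the sets that can be flagged. Sets in which all 4 libraries are equal, as with H3K4me3 at 0 throughout, count among the 64 but cannot be flagged. Sets in which 3 libraries stand at 0 and the other does not are flagged by construction. The 4 flags among 64 were therefore not weighed against the chance share. The H3K4me3 share of chr11_KI270721v1_random, the contig with matched transcripts of H19 and MRPL23, was 7.03% in 1 library, that labelled No gRNA replicate 2, against 0 in the other 3. The H3K4me3 share of chr22_KI270734v1_random, with matched transcripts of DGCR6 and PRODH, was 2.12% in the same library and 0 in the others. This library also had the largest H3K4me3 share of the chromosomes, 3.78%. The H3K4me3 share of chrUn_GL000195v1 was lowest where the label reads All gRNA replicate 2, at 6.50%, against 15.6% to 16.8% elsewhere. The H3K9me3 share of chrUn_KI270320v1 was 96.1% in All gRNA replicate 1 and 98.2% to 98.6% in the others.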

How the results depend on the processing

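Under the alternatives 182 values of 21 results were recomputed, and 137 of them kept their direction and their side of the threshold or, for counts, stayed within 1.5 times. The difference between the marks of 44.5 points lay between 15.3 (equal covered length) and 73.4 points (median over contigs) with an exact permutation p = 0.0286. It lay between 43.5 and 46.5 with each library left out, where the exact test cannot go below p = 0.0571 and reached it each time. The count of 97 contigs rich in H3K9me3 became 40 at q ≤ 0.001, 35 at equal covered length and 43 among contigs of at least 10 kb, where 90 contigs drop out by construction, and 97 to 103 without each library. That of contigs rich in H3K4me3 became 2 with all deposited peaks and stayed at 0 without each library. The H3K4me3 difference of contigs from chromosomes turned to 0.245 points at q ≤ 0.001 and to 0.0926 at equal covered length, and ranged from −1.21 to −0.429 without each library, where H3K9me3 ranged from 38.8 to 40.7.

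Between conditions, the H3K9me3 difference of 5.38 points ranged from 1.98 to 8.78 without each library. The H3K4me3 difference turned to 1.88 with all deposited peaks and to 0.0297 at equal covered length, and ranged from −0.619 to 0.158 without each library. The cause was not tested. Contigs with higher H3K9me3 in All gRNA numbered 4 when no q limit was set, 4 at q ≤ 0.01, 2 at q ≤ 0.001, 0 at 10 kb or more or with a gap of 50 points, and 3 to 9 without each library, and those with lower H3K9me3 numbered 1 at q ≤ 0.001 and 0 to 1 without each library. Contigs with higher H3K4me3 numbered 2 when no q limit was set, 0 at q ≤ 0.001, at 10 kb or more or with a gap of 50 points, and 1 to 2 without each library, and those with lower H3K4me3 0 to 1.

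Replicate numbers share nothing but the number as far as the labels say. Deviations of same-numbered libraries correlated at −0.262 for H3K9me3 and 0.499 for H3K4me3 over contigs. With the replicate block the differences were 5.38 (exact sign-flip p = 0.5, the smallest for 2 pairs) and −0.23 points, and 1 contig was higher and 0 lower with either mark, as without it. With the crossed pairing, chosen after seeing the data, H3K9me3 also gave 1 and 0. Of the contigs with the widest gaps, chrUn_KI270753v1, chr5_GL000208v1_random and chrUn_KI270511v1, and the H3K4me3 contigs chr1_KI270713v1_random and chrUn_GL000195v1, lost the smallest p under at least 1 stricter peak threshold, in the same direction. The differences were then 74.5 points, 1.08 to 73.6, 48.4, −16.0 to −10.9 and −4.71. Depth cannot be read from peak lists, so weak coverage and missing signal cannot be separated.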
